A study of Mus musculus with 14 samples.

Results

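The cyclins and kinases that carry germ cells through meiotic division were followed in spermatogonia and spermatocytes of mice with and without the DNA methyltransferase DNMT3C. The 10 genes were taken by name from the count tables of both stages: the A-type cyclins Ccna1 and Ccna2, the B-type cyclins Ccnb1 and Ccnb2, the kinases Cdk1, Cdk2, Plk1 and Aurkc, and the phosphatases Cdc25a and Cdc25c. All 10 were present among 32667 genes of the spermatogonia table and 36888 genes of the spermatocyte table, and all 10 passed the filter on low counts in every comparison. Dnmt3C KO/KO (KO) and wild-type (WT) mice of a C57Bl6/J background were compared. Spermatogonia (Spg) came from testes at postnatal day 14, sorted as live cells without β2-microglobulin and with EpCAM, in 3 KO and 3 WT libraries. Spermatocytes (Spc) came from mice older than 20 days, sorted by their DNA content with a Hoechst dye, in 4 KO and 4 WT libraries. Stage therefore cannot be told apart from animal age and from the way of sorting. KO and WT name each library as it was labelled.

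Entry into a division is driven by a cyclin-dependent kinase, a CDK, bound to its cyclin. The inhibitory kinases WEE1 and PKMYT1 hold the complex back, the CDC25 phosphatases release it, and the Polo-like kinase PLK1 helps to turn it on. Mitotic cells use cyclin A2 with CDK2 and CDK1, then cyclins B1 and B2 with CDK1. Male germ cells add cyclin A1, which is made from the pachytene stage of meiosis onward and is needed to leave the diplotene stage, and Aurora kinase C, a relative of Aurora B that acts on chromosomes in the meiotic divisions. CDK2 also sits on the chromosome ends and at sites of recombination in meiotic prophase.

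The stretches upstream of 5 of the genes are shown because these genes differ in the comparisons of KO with WT that follow: some were higher, some were lower and Cdk1 was not called. They are RefSeq sequences on GRCm38.p6, read 5′ to 3′ toward the gene, within the 250 bases before the annotated start, and bases in exons of other transcripts of the same gene were left off. That left 196 bases for Ccna1, all in an intron of a longer transcript, 166 for Ccnb1, 250 for Ccnb2, 224 for Cdk1 and 165 for Aurkc. Capitals mark the CCAAT box (CCAAT), the cell cycle homology region, CHR (TTTGAA), and the E2F motif (TTTCGCGC or TTTGGCGC) on either strand.
Ccna1 (chr3:55055056-55055251, minus strand): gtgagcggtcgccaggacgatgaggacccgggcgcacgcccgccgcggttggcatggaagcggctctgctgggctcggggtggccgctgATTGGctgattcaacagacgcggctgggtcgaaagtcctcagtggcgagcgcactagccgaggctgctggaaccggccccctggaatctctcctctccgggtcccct
Ccnb1 (chr13:100786571-100786736, minus strand): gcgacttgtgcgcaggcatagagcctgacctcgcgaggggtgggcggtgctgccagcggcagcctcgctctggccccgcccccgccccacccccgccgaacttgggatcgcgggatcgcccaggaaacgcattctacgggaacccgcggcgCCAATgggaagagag
Ccnb2 (chr9:70421555-70421804, minus strand): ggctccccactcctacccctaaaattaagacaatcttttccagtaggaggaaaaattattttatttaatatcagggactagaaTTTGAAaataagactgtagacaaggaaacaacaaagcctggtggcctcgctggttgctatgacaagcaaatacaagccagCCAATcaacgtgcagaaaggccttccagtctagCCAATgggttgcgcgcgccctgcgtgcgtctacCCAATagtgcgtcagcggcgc
Cdk1 (chr10:69352939-69353162, minus strand): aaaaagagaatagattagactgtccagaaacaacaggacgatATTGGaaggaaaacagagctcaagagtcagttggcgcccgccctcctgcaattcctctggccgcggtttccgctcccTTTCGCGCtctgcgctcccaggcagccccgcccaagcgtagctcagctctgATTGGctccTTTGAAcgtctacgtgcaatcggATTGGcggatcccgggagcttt
Aurkc (chr7:6995135-6995299, plus strand): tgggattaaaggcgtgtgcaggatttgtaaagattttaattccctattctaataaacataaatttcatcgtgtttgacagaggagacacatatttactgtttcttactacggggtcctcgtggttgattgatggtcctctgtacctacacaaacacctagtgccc
Upstream sequence was analysed for 8 of the 10 genes, and those of Ccna2 and Cdc25c were not analysed here. Over the whole 250 bases of those 8, a CCAAT box stood in 7, every gene but Aurkc, against 33.8% of all 32851 promoters. The CHR stood in Ccnb2 and Cdk1, against 16% of all promoters, and the E2F motif in Cdc25a and Cdk1, against 0.654%. A MYB motif (AACNG) stood in 7 of the 8, against 74.2%, and none of the 8 held the NRF1 motif GCGCATGC (2.26% of all promoters) or the cyclic AMP response element TGACGTCA (1.55%). The MYB motif shared 2 bases with the E2F motif in Cdc25a and 1 base with the CHR in Cdk1. The stretches of Ccna1, Cdk2 and Plk1 overlapped exons of other genes. Among the 8, GC content ran from 44.8% to 71.2% and CpG sites from 6 to 28, against medians of 52.4% and 6 over all promoters. The shares of all promoters were not matched for this. These are matches of letters, given as a description.

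Total counts per library ran from 40555726 to 53323651. Values are given as CPM, counts relative to the library's total, with TMM scaling over the 14 libraries together. Fold changes are given as log2 values with the standard error (SE) of edgeR's quasi-likelihood fit, and a gene was called at a Benjamini-Hochberg adjusted p under 0.01 over all genes and subfamilies of transposable elements tested together, and shares of all genes count genes alone. Nothing in the labels says whether the libraries of a group came from separate animals, so p-values measure the spread between these libraries. In Spc of each genotype, replicates 1 and 4 resembled each other closely, and their counts differed by a chi-square per feature of 11.6 in KO and 14.9 in WT, against 129 to 286 for the other pairs. They were kept apart because the labels list them as separate samples. A difference beyond counting noise does not show that they came from separate animals. The paper describes biological triplicates for this RNA sequencing, whereas 4 Spc libraries per genotype are listed. With replicates 1 and 4 summed, the genes called in Spc went from 12885 to 8758 and the number called among the 10 from 7 to 4. The lost calls are given where they occur. Dnmt3c RNA was not lower in KO (log2 fold change 0.10 in Spg and 0.77 in Spc, edgeR adjusted p 0.124 in the latter), so that it did not check the labels.

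The sorted populations were set against marker lists by their summed CPM. Genes of pachytene and diplotene cells, such as Piwil1, Ldhc and Pgk2, summed to 7400 to 14600 CPM in WT Spc and to 54.6 to 112 CPM in KO Spc, and all 8 were lower in KO. Genes of early meiosis, such as Sycp1 and Sycp3, summed to 2270 to 3470 CPM in WT Spc and 1560 to 2890 CPM in KO Spc. Genes of replication and proliferation summed to 1440 to 1750 CPM in WT Spc and 2590 to 3010 CPM in KO Spc, and 3000 to 4250 CPM in WT Spg. Of 7 genes of undifferentiated spermatogonia 5 were higher and 1 lower in KO Spc, with a median log2 fold change of 2.83 and sums of 142 to 217 CPM against 145 to 246 CPM in WT. Of 6 genes of differentiating spermatogonia 3 were higher and 1 lower, with a median of 2.36, while their sums were 278 to 725 CPM in KO and 697 to 1810 CPM in WT. The spermatid list lay at 73.2 to 1250 CPM in WT Spc and 3.49 to 11 CPM in KO Spc. Among somatic markers, all 5 Leydig genes and all 5 macrophage genes were called higher in KO Spc, against 28.0% of all genes. Their sums were 53.4 to 318 CPM against 13.9 to 29.5 CPM for Leydig cells and 22.2 to 124 CPM against 2.82 to 5.94 CPM for macrophages. Sertoli genes summed to 113 to 429 CPM in KO Spc and 53.9 to 188 CPM in WT Spc, peritubular genes to 10.4 to 160 CPM and 3.06 to 10.2 CPM, and erythroid genes to 1.2 to 11.9 CPM and 1.51 to 7.59 CPM. In these lists, 1 of 7 Sertoli genes, 2 of 4 peritubular genes and 0 of the 2 erythroid genes tested were called higher, and 0 lower. The part of cell composition in the results below was not tested, and fewer cells of a type and less RNA per cell cannot be told apart.

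Ranked by CPM per kilobase of exon, Ccnb2 and Plk1 headed WT Spg at 41.9 ± 6.01 and 41.0 ± 12.7 (SD, n = 3), followed by Ccna2 at 35 ± 9.19 and Ccnb1 at 30.9 ± 6.31, and neighbours among these 4 overlapped in their libraries. Cdk2 (22.2 ± 0.372), Cdc25a (14 ± 2.98) and Cdk1 (10.9 ± 0.837) stood in the middle, and Cdc25c (3.61 ± 1.13), Aurkc (1.75 ± 0.577) and Ccna1 (1.00 ± 0.756) were lowest. In KO Spg the same 4 genes led in the order Plk1, Ccna2, Ccnb1 and Ccnb2, at 42.4 to 32.8 CPM per kilobase, and Ccna1 again came last at 0.452 ± 0.204. WT Spc had another order. Ccnb2 led at 161 ± 26.8 CPM per kilobase (SD, n = 4), Ccna1 followed at 105 ± 80.2, and Plk1, Cdk2 and Aurkc came next at 53.0 ± 30.2, 40.9 ± 10.2 and 34.7 ± 21.2, while Ccna2 and Cdc25c closed the order at 3.65 ± 3.28 and 1.42 ± 0.461. Each neighbour in the WT Spc order overlapped the next. In KO Spc, Ccnb2, Ccnb1, Plk1 and Ccna2 led at 39.6 ± 6.39, 34.4 ± 8.15, 30.2 ± 5.27 and 29.0 ± 3.07, and Aurkc (1.38 ± 0.211) and Ccna1 (0.621 ± 0.135) were at the end, the places they held in Spg.

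**Figure D1:**
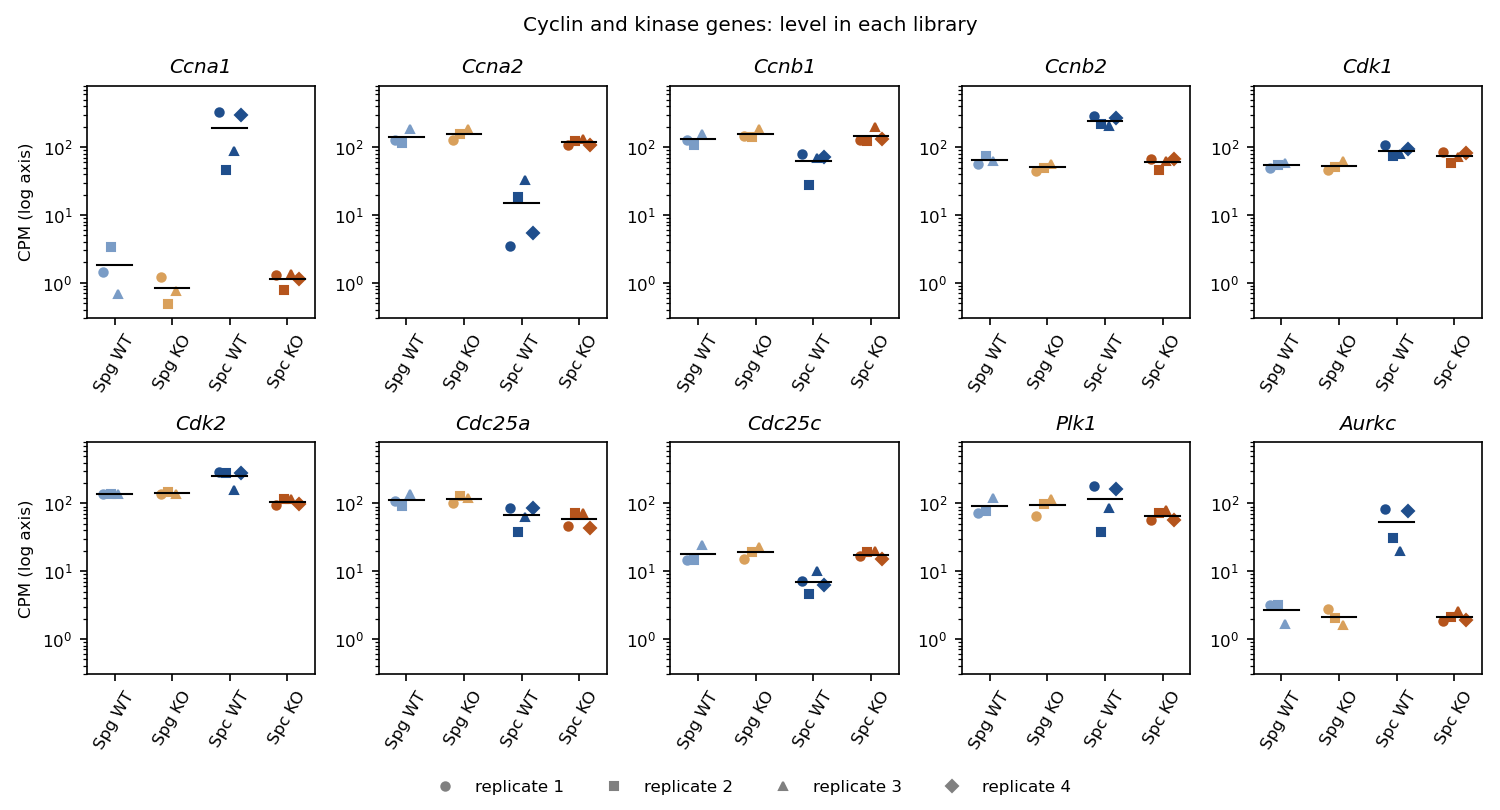
CPM of the 10 genes in each of the 14 libraries, on a log axis that is the same in every panel. Symbols stand for replicate numbers and bars for the group mean. In Spc, Ccna1 ran from 46.1 to 335 CPM in WT and from 0.788 to 1.33 CPM in KO, and Ccna2 from 3.46 to 32.3 CPM in WT and from 107 to 133 CPM in KO.

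The first comparison was of KO with WT in the cells sorted as spermatocytes, whose marker sums differed as given above. The paper reports an arrest at the pachytene stage in KO and a later stage among the sorted WT cells. In spermatocytes 7 of the 10 genes were called, 3 higher and 4 lower in KO. Over all genes tested, 58.8% were called, 28.0% higher and 30.7% lower, so a share of this size is not particular to these genes. Libraries of KO and WT did not overlap for the 7 called genes, as for 68.4% of all genes. Across all genes the median change (log2) was 0.11 with TMM and 0.79 with library totals as the scale, and the values of the single genes below move with it. By library totals 6 genes were called, 3 higher and 3 lower.

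The A-type cyclins went in opposite directions. Ccna1 (ENSMUSG00000027793.6, GRCm38 chromosome 3, 55045469 to 55055501, minus strand), the cyclin of meiotic prophase, had 335, 46.1, 86.5 and 302 CPM in WT Spc replicates 1 to 4 and 1.29, 0.788, 1.33 and 1.14 CPM in KO Spc. Every KO library lay below every WT library, and the KO values were at the level of Spg, where Ccna1 had 0.493 to 3.38 CPM. In Spc it was 170-fold lower in KO, with a log2 value of -7.41 (SE 0.74, edgeR adjusted p 2.66e-05). Ccna2 (ENSMUSG00000027715.9, chromosome 3, 36564865 to 36572150, minus strand), the cyclin of S phase and of mitotic entry, had 3.46, 18.4, 32.3 and 5.39 CPM in WT Spc and 107, 124, 133 and 108 CPM in KO Spc. It was 8.20-fold higher in KO, at 3.04 on that scale (SE 0.61, edgeR adjusted p 0.00143). Both calls held in all 20 alternatives, with log2 fold changes of -8.01 to -5.93 for Ccna1 and 2.37 to 4.64 for Ccna2.

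The B-type cyclins were also opposed, by less. Ccnb2 (ENSMUSG00000032218.7, chromosome 9, 70407692 to 70421547, minus strand), with 3 CCAAT boxes and a CHR in the sequence above, had 289, 220, 204 and 273 CPM in WT Spc and 67.1, 46.1, 63.1 and 65.9 CPM in KO Spc. The groups stood apart, and Ccnb2 was 4.03-fold lower in KO, at -2.01 (SE 0.22, edgeR adjusted p 4.18e-05), called in all 20 alternatives. Ccnb1 (ENSMUSG00000041431.16, chromosome 13, 100778650 to 100786570, minus strand), the main partner of CDK1 at mitotic entry, had 80.3, 27.8, 69.9 and 72.6 CPM in WT Spc and 127, 125, 197 and 132 CPM in KO Spc. It was 2.33-fold higher, at 1.22 (SE 0.33, edgeR adjusted p 0.00795). This call was kept in only 1 of the 8 fits without 1 library, that without WT replicate 2, with adjusted p up to 0.0227 without KO replicate 3. It was also lost for Ccnb1 with replicates 1 and 4 summed (1.38, adjusted p 0.0202), with replicates 2 and 3 only (1.74, 0.0194) and with DESeq2's size factors (1.15, 0.0114). The pseudogenes Ccnb1-ps and Ccnb2-ps, which may share reads with the cyclins, held at most 2.33% and 1.82% of the summed counts of gene and pseudogene.

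Of the cyclin-dependent kinases, Cdk2 (ENSMUSG00000025358.16, chromosome 10, 128697939 to 128705031, minus strand) had 291, 284, 160 and 282 CPM in WT Spc and 95.6, 117, 115 and 99.1 CPM in KO Spc. WT replicate 3 was the nearest to KO, without reaching it, and Cdk2 was 2.36-fold lower in KO, at -1.24 (SE 0.23, edgeR adjusted p 0.000928). By library totals the value was -0.49 (adjusted p 0.0432), with replicates 1 and 4 summed it was -1.13 (adjusted p 0.0122), and with replicates 2 and 3 only it was -0.90 (adjusted p 0.071). Cdk1 (ENSMUSG00000019942.13, chromosome 10, 69335146 to 69352938, minus strand), the kinase that drives cells into M phase, had 107, 75.0, 80.1 and 92.6 CPM in WT Spc and 84.0, 59.4, 71.6 and 83.4 CPM in KO Spc. Its libraries overlapped, at -0.23 (SE 0.21, edgeR adjusted p 0.335), and by library totals the value was 0.47.

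The CDC25 phosphatases, which remove the inhibitory phosphates from CDKs, differed from each other. Cdc25c (ENSMUSG00000044201.10, chromosome 18, 34732993 to 34751533, minus strand) had 7.16, 4.58, 9.99 and 6.23 CPM in WT Spc and 16.5, 19.1, 19.6 and 15.2 CPM in KO Spc. It was 2.55-fold higher, at 1.35 (SE 0.32, edgeR adjusted p 0.0035), a call lost without WT replicate 1 (adjusted p 0.0115) or WT replicate 4 (0.0138), with replicates 1 and 4 summed (1.38, 0.0244) and with replicates 2 and 3 only (0.0576). Cdc25a (ENSMUSG00000032477.14, chromosome 9, 109875579 to 109893895, plus strand), which acts mainly at the start of S phase, had 84.5, 37.4, 64.1 and 85.6 CPM in WT Spc and 47.1, 72.4, 71.5 and 44.1 CPM in KO Spc. The groups overlapped, at -0.20 (SE 0.31, edgeR adjusted p 0.578). Within replicates 1 and 4 the value was -0.88 and within replicates 2 and 3 it was 0.53, so its sign depended on the libraries.

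Aurkc and Plk1 are the division kinases outside the CDK family. Aurkc (ENSMUSG00000070837.5, chromosome 7, 6995300 to 7003091, plus strand), the meiotic Aurora kinase and the gene without a CCAAT box above, had 83.4, 30.6, 19.6 and 77.5 CPM in WT Spc and 1.84, 2.11, 2.55 and 1.91 CPM in KO Spc. The KO libraries were at the level of Spg (1.58 to 3.22 CPM) and below every WT library of Spc. Aurkc was 25.1-fold lower, at -4.65 (SE 0.53, edgeR adjusted p 5.68e-05), called in all 20 alternatives. Plk1 (ENSMUSG00000030867.7, chromosome 7, 122159439 to 122169873, plus strand) had 178, 38.3, 85.0 and 165 CPM in WT Spc and 57.0, 71.9, 80.0 and 56.4 CPM in KO Spc. WT replicate 2 was below every KO library, and the other WT libraries were above them. The value for Plk1 was -0.82 (SE 0.43, edgeR adjusted p 0.111), and -1.14 without WT replicate 2, where it was called (adjusted p 0.00917).

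The 4 WT libraries of spermatocytes were not alike in these genes. The ratio of the highest to the lowest WT Spc library was 9.35 for Ccna2, 7.26 for Ccna1, 4.65 for Plk1 and 4.25 for Aurkc, against 1.42 for both Ccnb2 and Cdk1. Replicates 1 and 4 had the higher Ccna1, Plk1 and Aurkc and the lower Ccna2, and their pachytene and diplotene lists summed to 14600 and 14100 CPM, against 11800 and 7400 CPM in replicates 2 and 3. The spermatid lists summed to 486 and 426 CPM in replicates 1 and 4, 73.2 CPM in replicate 2 and 1250 CPM in replicate 3. In KO Spc the same ratio was between 1.23 and 1.69 for all 10 genes.

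In spermatogonia none of the 10 genes was called by edgeR, at 0.0436% of all genes called, and DESeq2 called none of the 10 and 1.81% of all genes. At an unadjusted p under 0.05, which 7.30% of all genes reached, there was 1 gene, Ccnb2. Ccnb2 had 56.3, 74.3 and 61.9 CPM in WT Spg and 45.1, 48.7 and 56.9 CPM in KO Spg, at -0.39 (SE 0.17, edgeR adjusted p 0.681). With TMM over the Spg libraries alone, Ccnb2 was the only member whose libraries did not overlap, as 12.1% of all genes did not. In the CPM above, scaled over all 14 libraries, they did overlap, with 56.9 in KO replicate 3 and 56.3 in WT replicate 1. Ccna1 had the largest difference, with 1.45, 3.38 and 0.692 CPM in WT Spg and 1.23, 0.493 and 0.763 CPM in KO Spg, at -1.2 (SE 0.62, edgeR adjusted p 0.841), and -0.38 without WT replicate 2. That library also had the highest sum of the pachytene and diplotene list, 1140 CPM against 280 and 130 CPM in the other WT and 46.5 to 69.3 CPM in KO Spg. The remaining 8 genes lay between -0.39 for Aurkc and 0.24 for Ccnb1. For Cdk2, with 140, 136 and 138 CPM in WT and 139, 146 and 140 CPM in KO, the value was 0.00 (SE 0.10), and Cdk1, Cdc25a and Plk1 were within 0.04 of 0.00 with SEs of 0.16, 0.16 and 0.26.

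**Figure D2:**
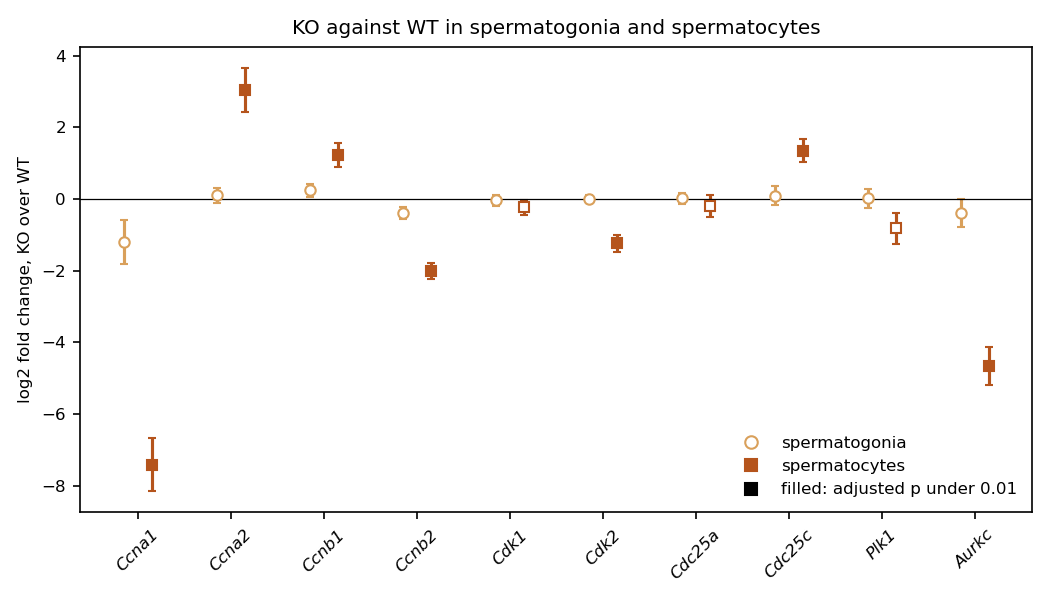
Log2 fold change of KO over WT for the 10 genes in Spg (circles) and Spc (squares), with bars of 1 SE from edgeR. Filled symbols are called at an adjusted p under 0.01. All Spg values are open and between -1.2 and 0.24, and in Spc the 7 filled symbols range from -7.41 for Ccna1 to 3.04 for Ccna2.

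Whether the effect of the genotype differed between the stages was tested over all 14 libraries. The difference, Spc minus Spg, was called for 5 of the 10 genes, against 25.7% of all genes. It was negative for Ccna1 (-6.25, SE 0.96, edgeR adjusted p 0.000415), Aurkc (-4.31, SE 0.66, 0.000397), Ccnb2 (-1.67, SE 0.27, 0.000577) and Cdk2 (-1.29, SE 0.28, 0.00268), and positive for Ccna2 (2.85, SE 0.77, 0.00943), against 14.6% of all genes called lower and 11.1% higher. The calls of Ccna1, Aurkc and Ccnb2 held in all 38 alternatives. That of Ccna2 was kept in only 3 of 14 fits without 1 library, those without Spg WT replicate 2, Spc WT replicate 1 or Spc WT replicate 3, with adjusted p up to 0.0204. Leaving out a library often also changed the library that TMM takes as its reference, from Spc KO replicate 3 to Spc WT replicate 3. With that reference held, Cdk2 was called in all 13 fits without 1 library, and Ccna2 in 2 of 13, those without Spc WT replicate 1 or 3. Without the hold, Cdk2 was called in 9 of 14, with adjusted p up to 0.0121 where it was not. With the replicate number as a block Cdk2 was not called (-1.26, adjusted p 0.01). With Spc replicates 1 and 4 summed, neither Ccna2 (2.58, adjusted p 0.0136) nor Cdk2 (-1.25, 0.0126) was called. By library totals 6 genes were called, 3 higher and 3 lower: Cdk2 was not among them (-0.51, adjusted p 0.0986), whereas Ccnb1 (1.68, 0.00941) and Cdc25c (1.90, 0.00901) were. With TMM, for Cdc25c (1.22, SE 0.43, adjusted p 0.0321) and Ccnb1 (0.95, SE 0.43, 0.0854) a difference between the stages was not called, nor was it for Plk1 (-0.86, SE 0.58), Cdc25a (-0.26, SE 0.40) or Cdk1 (-0.24, SE 0.27). Without Spc WT replicate 3 the difference of Cdc25c was called (1.42, adjusted p 0.00834).

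The change from Spg to Spc was then taken in each genotype. In WT, 8 of the 10 genes were called, 5 higher and 3 lower in Spc, against 52.5% of all genes (29.2% higher and 23.3% lower). Libraries of the stages did not overlap for 9 of the 10 genes, all but Plk1, as for 66.0% of all genes. Ccna1 (6.71, SE 0.82, edgeR adjusted p 2.14e-05), Aurkc (4.30, SE 0.53), Ccnb2 (1.94, SE 0.20), Cdk2 (0.88, SE 0.20) and Cdk1 (0.72, SE 0.19) were higher in Spc. Ccna2 (-3.26, SE 0.56), Cdc25c (-1.34, SE 0.30) and Ccnb1 (-1.06, SE 0.30) were lower. Cdc25a (-0.73, SE 0.28, adjusted p 0.0338) and Plk1 (0.37, SE 0.41) were not called. The rise of Cdk1 rested on the scaling: it was 0.59 (adjusted p 0.0205) with Spc WT replicate 3 as the TMM reference and -0.11 by library totals, where Plk1 was at -0.49 and Cdk2 at 0.03. With the reference held, Cdk1 lost its call without any of the 3 Spg WT libraries or Spc WT replicate 1 or 4 (adjusted p up to 0.029). In those fits Ccnb1 lost its call without Spg WT replicate 1 or 3 or Spc WT replicate 3 or 4 (up to 0.0349) and Cdc25c without Spg WT replicate 3 (0.0126), whereas Cdk2 kept it in all 13. With Spc replicates 1 and 4 summed, Ccnb1 (-1.09, adjusted p 0.0176) and Cdk1 (0.73, 0.0139) were not called.

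In KO, edgeR called none of the 10 genes between Spg and Spc, at 3.05% of all genes called, and DESeq2 called none of them and 7.42% of all genes. At an unadjusted p under 0.05 there were 2 genes, against 24.5% of all genes: Cdc25a (-0.99, SE 0.28, edgeR adjusted p 0.0433) and Cdk1 (0.48, SE 0.19, adjusted p 0.142). KO libraries of the stages did not overlap for Cdc25a and Cdk2, as for 26.4% of all genes. Ccna1, which separated the stages most in WT, had 0.493 to 1.23 CPM in KO Spg and 0.788 to 1.33 CPM in KO Spc, at 0.45 (SE 0.66). Aurkc had 1.58 to 2.74 CPM and 1.84 to 2.55 CPM, at 0.00 (SE 0.45). Ccna2 had 126 to 184 CPM and 107 to 133 CPM, at -0.41 (SE 0.53). The WT and KO stage comparisons use the same fit but different libraries, and the test of their difference is that of the preceding comparison.

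Ratios of related genes within a library do not depend on how libraries are scaled. They are ratios of counts, not corrected for the lengths of the genes, so that they compare libraries. The ratio of Ccna1 to Ccna2 counts was 96.4, 2.51, 2.67 and 55.8 in WT Spc replicates 1 to 4, and Ccna1 exceeded Ccna2 in every WT library also per base of exon. In KO Spc it was 0.0121, 0.00644, 0.0101 and 0.0106, and in Spg of either genotype it was 0.00315 to 0.029. The Ccnb2 to Ccnb1 ratio of counts was 3.61, 7.90, 2.92 and 3.77 in WT Spc and 0.526, 0.370, 0.321 and 0.499 in KO Spc. Per base of exon the ratio was 8.04 to 21.8 in WT Spc and 0.884 to 1.45 in KO Spc, where Ccnb2 exceeded Ccnb1 in 3 of 4 libraries. The Cdk2 to Cdk1 ratio was 2.73, 3.79, 2.00 and 3.05 in WT Spc and 1.14, 1.97, 1.60 and 1.19 in KO Spc. The Cdc25c to Cdc25a ratio was 0.085, 0.123, 0.156 and 0.073 in WT Spc and 0.351, 0.264, 0.274 and 0.345 in KO Spc.

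On the log2 scale KO differed from WT Spc by -10.49 for Ccna1 over Ccna2, -3.32 for Ccnb2 over Ccnb1, -0.97 for Cdk2 over Cdk1 and 1.55 for Cdc25c over Cdc25a. KO and WT libraries did not overlap in any of these 4 ratios, and each had a two-sided exact permutation p of 0.0286, the smallest that 4 against 4 allows, and 0.0571 after Benjamini-Hochberg adjustment over the 8 tests. That test counts Spc replicates 1 and 4 as separate libraries. With them summed it is 3 against 3, where the smallest possible p is 0.10. In Spg the differences were -1.10, -0.62, 0.06 and 0.08, with exact permutation p of 0.30, 0.10, 0.90 and 0.70, where 0.10 is the smallest that 3 against 3 allows. Ccnb2 over Ccnb1 was the ratio without overlap in Spg, with 0.448, 0.697 and 0.389 in WT and 0.308, 0.349 and 0.309 in KO. WT Spg replicate 2, the highest in this ratio, also had the largest sum of the pachytene and diplotene list in Spg, 1140 CPM against 46.5 to 280 CPM in the others; its part in the ratio was not tested. Without that library the difference was -0.38 for Ccnb2 over Ccnb1 and -0.38 for Ccna1 over Ccna2, and without WT Spg replicate 3 it was -0.80 and -1.86.

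**Figure D3:**
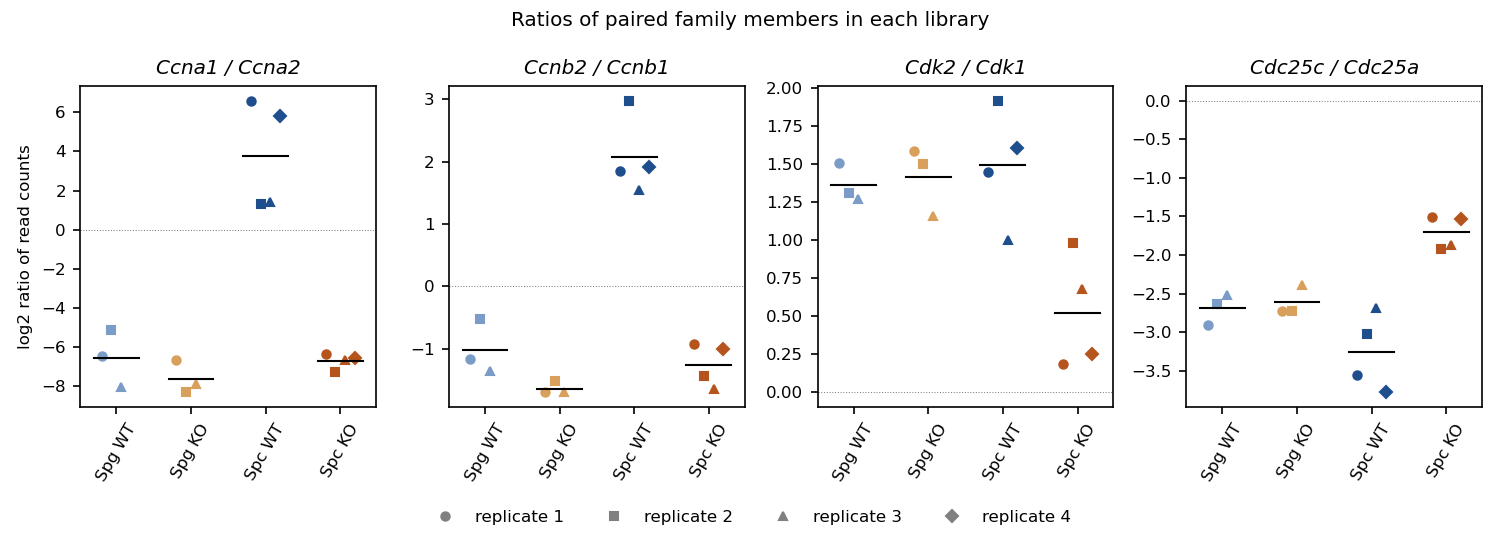
Log2 ratio of the read counts of paired genes in each library, with a pseudocount of 0.5 count and bars for the group means; each panel has its own axis and the dotted line marks equal counts. The Ccna1 to Ccna2 ratio lies above the line in WT Spc only, and KO Spc has the Cdc25c to Cdc25a ratio nearest to it.

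The other genes of the division machinery were taken from 7 lists of 90 genes by role. In Spc 55 of the 90 were called, 24 higher and 31 lower in KO, near the 58.8% of all genes. By library totals 42 were higher and 19 lower, so the balance of directions rests on the scaling, and the counts by role below are given with TMM and then, in parentheses, by library totals. In Spg edgeR called none of the 90 and DESeq2 called 1, which was lower in KO, as it called 1.81% of all genes, and 5 had an unadjusted p under 0.05, against 7.30% of all genes. The difference between stages was called for 27 of 90, 8 higher and 19 lower (21 and 8 by library totals), against 25.7% of all genes (24.6%), the change from Spg to Spc for 59 in WT, 30 higher and 29 lower (19 and 43), against 52.5% (54.5%), and for 1 in KO, against 3.05%. That gene was Lin9 (1.37, adjusted p 0.00548), a subunit of a complex that controls cell cycle genes, named after its value was seen. With replicates 1 and 4 summed, or with replicates 2 and 3 only, 0 of the 90 were called between the KO stages, and fits without 1 library called 0 to 4.

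The shares of all genes to set beside the counts are 28.0% called higher and 30.7% lower with TMM, and 36.8% higher and 22.3% lower by library totals. Among the other cyclins 3 of 9 were higher and 1 lower in KO Spc (6 and 1). Ccnb3, a B-type cyclin of early meiotic prophase, had 0.926, 4.01, 18.4 and 1.74 CPM in WT Spc and 570, 219, 585 and 683 CPM in KO Spc, without overlap and at 6.40 (SE 0.96, edgeR adjusted p 0.00027). In Spg Ccnb3 had 24.8 to 67.8 CPM in WT and 57.4 to 146 CPM in KO, at 1.26 (SE 0.46, adjusted p 0.517). Ccni was the called cyclin with the largest fall (-1.61, SE 0.22). Of 12 CDK inhibitors, activators and partners, 5 rose and 5 fell (7 and 5). Pkmyt1, an inhibitory kinase of CDK1, had 157 to 243 CPM in WT Spc and 17.0 to 27.2 CPM in KO Spc (-3.12, SE 0.24, edgeR adjusted p 5.95e-06). The other inhibitory kinase, Wee1, had 27.7 to 54.9 CPM and 65.3 to 94.1 CPM, without overlap, and was not called (0.83, SE 0.25, adjusted p 0.0136), though it was by library totals (1.51, 0.0017) and without WT replicate 3 (0.97, 0.00626). Cdc25b, the remaining CDC25 phosphatase, had 0.587 to 4.46 CPM in WT Spc and 13.2 to 25.4 CPM in KO Spc (3.03, SE 0.64, adjusted p 0.00188). The CDK inhibitor Cdkn1a rose most in this list (3.79, SE 0.71), with 82.2 and 68.5 CPM in KO replicates 1 and 4 and 10.6 and 15.2 CPM in KO replicates 2 and 3, against 2.32 to 5.77 CPM in WT Spc. KO replicates 1 and 4 also had the larger sums of somatic markers, 318 and 260 CPM for the Leydig list against 53.4 and 59.3 CPM in KO replicates 2 and 3, and 429 and 383 CPM for the Sertoli list against 152 and 113 CPM. Their part in the value of Cdkn1a was not tested.

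Of 12 entry kinases and regulators of the opposing phosphatase, 4 rose and 3 fell (7 and 2). Aurka, the Aurora kinase of the spindle poles, had 174 to 469 CPM in WT Spc and 47.2 to 66.6 CPM in KO Spc (-2.56, SE 0.36, edgeR adjusted p 0.000184), and Plk3 rose most (2.85, SE 0.53), from 0.348 to 1.51 CPM to 4.06 to 8.53 CPM. Of 15 genes of the chromosomal passenger complex and the spindle checkpoint, 3 rose and 10 fell (4 and 4), with a median log2 fold change of -1.10 against 0.11 over all genes, and of -0.34 against 0.79 by library totals. Haspin, the kinase that recruits the passenger complex to chromatin, had 411 to 1210 CPM in WT Spc and 17.2 to 23 CPM in KO Spc (-5.40, SE 0.43, adjusted p 7.39e-06), and Sgo1, which guards cohesion at centromeres, rose most (2.33, SE 0.47). Aurkb, the somatic counterpart of Aurkc, had 10.2 to 43.8 CPM in WT Spc and 33.7 to 46.5 CPM in KO Spc and was not called (0.48, SE 0.44), with a sign that depended on the libraries: -0.29 within replicates 1 and 4 and 1.68 within replicates 2 and 3. For Aurkb the test of the KO effect between stages gave 0.35 (SE 0.55).

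Of 16 subunits and regulators of the anaphase promoting complex, which destroys the cyclins, 2 rose and 4 fell (7 and 1). Its activator Cdc20 had 314 to 423 CPM in WT Spc and 152 to 193 CPM in KO Spc (-1.2, SE 0.19, edgeR adjusted p 0.000321), and -0.47 by library totals (adjusted p 0.0252). Its inhibitors Fbxo5 (2.69, SE 0.47) and Fbxo43 (-2.84, SE 0.42) moved in opposite directions: Fbxo5, the mitotic form, from 1.51 to 5.08 CPM in WT Spc to 15 to 26 CPM in KO Spc, and Fbxo43, the form of germ cells, from 105 ± 32 CPM to 14.6 ± 6.23 CPM. Of 20 transcriptional regulators of cell cycle genes, 6 rose and 3 fell (10 and 1), with E2f3 (3.03, SE 0.68) and E2f8 (-1.79, SE 0.37) at the ends, and E2f8 was not called by library totals (-0.98, adjusted p 0.0224), with the replicate block (0.0112) or with replicates 1 and 4 summed (0.0188). Mybl1, the regulator of pachytene genes, had 169 to 258 CPM in WT Spc and 63.7 to 197 CPM in KO Spc and was not called (-0.59, SE 0.32, adjusted p 0.125). Of 6 factors known to be needed for male germ cells, 1 rose and 5 fell (1 and 5). The 1 that rose, Dazl, also had 858 to 1130 CPM in WT Spg. Hspa2, the chaperone that assembles CDK1 with cyclin B1 in spermatocytes, had 2620 to 3930 CPM in WT Spc and 113 to 217 CPM in KO Spc (-4.31, SE 0.30, adjusted p 4.13e-06), and Dazl, an RNA-binding protein, had 117, 214, 575 and 117 CPM in WT Spc and 853 to 1270 CPM in KO Spc (2.17, SE 0.49), a call lost with replicates 1 and 4 summed (adjusted p 0.0134) and without WT replicate 2 (2.07, 0.0108). With Spc replicates 2 and 3 only, Cdc25b (1.98), Cdc20 (-1.02), Cdkn1a (1.70), Plk3 (2.06), E2f8 (-0.91) and Dazl (1.46) kept their direction and were not called.

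**Figure D4:**
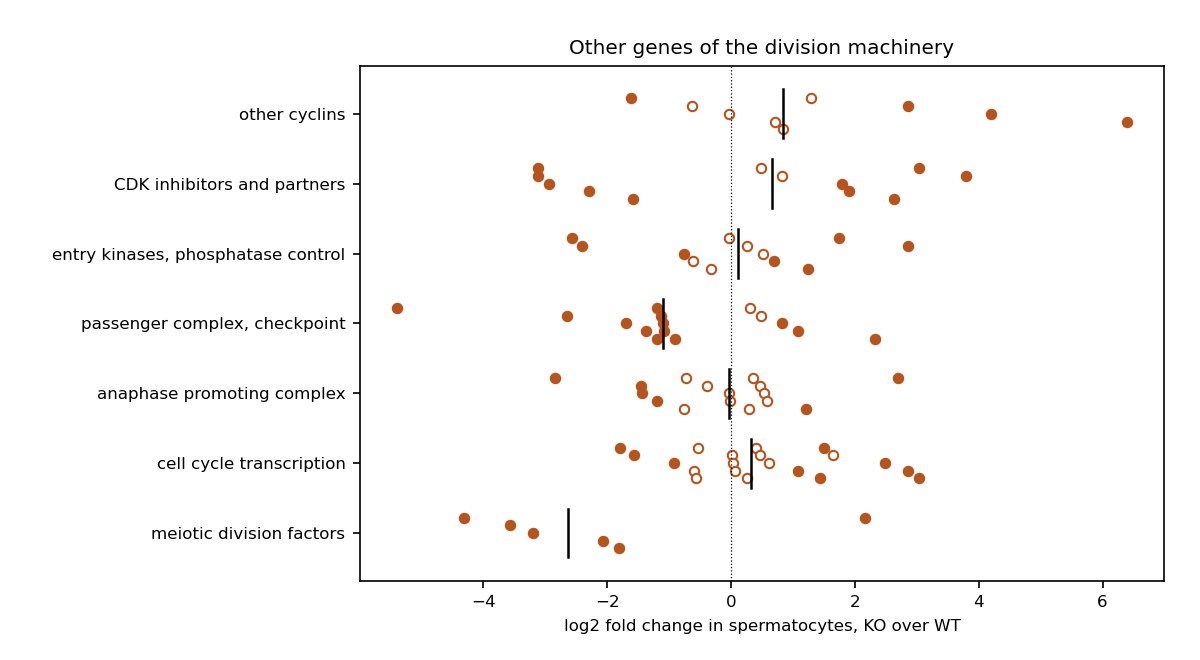
Log2 fold change in Spc, KO over WT, for 90 other genes of the division machinery by role. Each circle is a gene, filled where called at an edgeR adjusted p under 0.01, and black bars are the list medians. The 15 passenger and checkpoint genes have a median of -1.10 and the 6 germ cell factors of -2.63, against 0.11 over all genes.

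Of the 90 genes, 9 were set to be named in every comparison. In Spg none of the 9 was called. Hspa2 had 126 to 570 CPM in WT Spg and 67.6 to 74.1 CPM in KO Spg (-2.16, SE 0.51, edgeR adjusted p 0.163, unadjusted 0.00271), and Pkmyt1 had 23.9 to 59.1 CPM and 14.1 to 22.5 CPM (-1.08, SE 0.38, adjusted p 0.474, unadjusted 0.0221), both without overlap. WT Spg replicate 2, with the largest pachytene and diplotene sum in Spg, was the highest for both genes. Ccnb3 is given above, and Wee1, Cdc25b, Aurka, Aurkb, Cdc20 and Mybl1 ranged from -0.19 for Mybl1 to 0.11 for Aurkb.

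The difference of the KO effect, Spc minus Spg, was called lower for Aurka (-2.43, SE 0.44, edgeR adjusted p 0.00106), Hspa2 (-2.22, SE 0.55, 0.00578), Pkmyt1 (-2.12, SE 0.45, 0.00245) and Cdc20 (-1.13, SE 0.27, 0.00443). It was called higher for Ccnb3 (5.05, SE 1.14, adjusted p 0.0037) and Cdc25b (2.94, SE 0.80, 0.00981), and not called for Wee1 (0.78, SE 0.32, 0.0604), Aurkb or Mybl1 (-0.47, SE 0.54).

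Between the stages in WT, values are given for the 9 genes and for Haspin, added for its fall in KO Spc. Haspin (4.83, SE 0.44), Hspa2 (3.56, SE 0.44), Aurka (2.50, SE 0.34), Pkmyt1 (2.32, SE 0.34) and Cdc20 (1.28, SE 0.19) were called higher in WT Spc, whereas Cdc25b (-3.30, SE 0.58), Ccnb3 (-2.65, SE 0.78) and Wee1 (-1.37, SE 0.23) were called lower. These comparisons share the WT Spc libraries with the genotype comparison. Mybl1 was called higher (2.22, SE 0.41) and Aurkb was not called (-0.85, SE 0.39). In KO, none of these 10 genes was called between the stages, with Ccnb3 at 2.40 (SE 0.82, edgeR adjusted p 0.0883) and Mybl1 at 1.76 (SE 0.40, adjusted p 0.0164).

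The genes whose levels were most like those of Ccna1 over the 14 libraries were found by Pearson's r of log2 CPM among 16918 genes with a mean CPM of at least 1. They were 1700003H04Rik, 1700019G24Rik and Cdk19os, each with r = 0.997. The points share the 4 groups, and the contrast of WT Spc with the rest makes up most of the range for these genes.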

How the data were processed

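Polyadenylated RNA of 14 libraries was sequenced with a stranded kit. The authors aligned reads to GRCm38 with STAR 2.7.3a and GENCODE M25, kept up to 100 alignments per read and counted genes and subfamilies of transposable elements with TEtranscripts, so the deposited values used here are raw counts. The authors' fold changes and p-values in the same tables, from DESeq2 1.44.0, and their tables of single element copies were not used. A spermatogonia library per genotype that the study excluded for RNA quality was not analysed here.

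Counts were filtered with filterByExpr, scaled by TMM and fitted with the quasi-likelihood test of edgeR 4.0.16 under R 4.3.3, two-sided, with Benjamini-Hochberg adjustment over genes and element subfamilies. Genotypes were compared within each stage, and stages over 14 libraries in 4 groups. Ratios used 0.5 added count and exact permutation tests. Python 3.11.15 and DESeq2 1.42.0 (an alternative) were also used. Other alternatives were the scaling, its reference library, the filter, the threshold, a replicate block (within each stage) and fits without 1 library. Scripts were tested on simulated data. Positions and exon lengths came from GENCODE M21. Counting error is small at these depths, and reads shared with near-identical copies cannot be placed. Ccna1, Ccna2, Cdk2, Cdc25c and Plk1 overlap genes on the opposite strand, and counting used the strand; Cdc25a overlaps Mir7089 on its own strand.

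The members and lists were chosen with earlier results of these data known. Named are the members, 9 preset genes, and in each list the called gene with the largest rise and fall in spermatocytes at a mean count of at least 100. The genes most like Ccna2 are not reported here. Same-numbered KO and WT spermatogonia deviated together from their group means (r = 0.52, 0.17 and 0.18), although KO replicate 2 correlated more with WT replicate 3 (0.26). The main fits and the permutation tests did not pair libraries, and pairing by number was used only in the replicate block. The deposited columns number spermatogonia replicate 3 as 4 in both genotypes. Same-numbered spermatocyte libraries did not all deviate together (0.08, 0.21, -0.01 and 0.12).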

Additional observations from a re-analysis of the deposited data

Results flagged for a closer look

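In 5 of the 10 genes the effect of the genotype differed between spermatogonia and spermatocytes by the interaction term of edgeR's fit over 14 libraries. The log2 differences were -6.25 for Ccna1, -4.31 for Aurkc, -1.67 for Ccnb2, -1.29 for Cdk2 and 2.85 for Ccna2, against 25.7% of all genes called. The calls of Ccna1, Aurkc and Ccnb2 held in all 38 alternatives, whereas that of Ccna2 was lost in 23 of 38 and that of Cdk2 in 9 of 38, both with Spc replicates 1 and 4 summed. Stage, animal age and sorting method cannot be told apart in this comparison.

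Of 28 groups of 4 libraries looked at for a library far from the rest, over gene levels and ratios in spermatocytes, 2 held one, and chance alone marks about 1 in 20. Ccnb1 stood at 197 CPM in KO spermatocyte replicate 3, a gap of 0.898 of the group's range. Cdk2 stood at 160 CPM in WT spermatocyte replicate 3, a gap of 0.931 of the range, and that library also had the lowest sum of the pachytene and diplotene list, 7400 CPM, and the highest of the spermatid list, 1250 CPM; their part in the value was not tested.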

How the results depend on the processing

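Over the alternatives, 1669 values kept direction and side of the threshold or stayed near the main value, 88 lost a call, 15 gained one, 50 moved and 42 changed sign. The cause of a change was not tested unless named. By library totals KO over WT in Spc was 0.47 for Cdk1 and 0.55 for Cdc25a, the stage differences were 0.49 and 0.51, and WT Spc over WT Spg was -0.11 for Cdk1 and -0.49 for Plk1; the stage difference then had 3 members higher and 3 lower (1 and 4 with TMM) and the WT stage change 3 and 4 (5 and 3). In Spg, Cdk2 was at 0.00 with TMM over genes alone.

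Comparisons with Spc replicates 2 and 3 only were added after seeing the data: 4 members were called in Spc, with Cdc25a at 0.53 and Plk1 at 0.33, the stage differences were 0.60 and 0.40, Plk1 was at -0.70 between WT stages, and between KO stages Ccnb1 was at 0.03 and Aurkc at 0.14. With replicates 1 and 4 summed, 4 members were called in Spc, with Cdc25a at 0.03, 3 in the stage difference, and Aurkc was at 0.06 between KO stages. In KO, 1 member passed an adjusted p under 0.05 between stages, and 2 were called with replicates 1 and 4 only (8.39% and 20.3% of all genes). Of the 90 other division genes, Spc had 33 called with replicates 1 and 4 summed and 27 with 2 and 3 only (39.3% and 23.8% of all genes). The stage difference had 52 at an adjusted p under 0.05, 45 by DESeq2, 15 summed, 54 with replicates 1 and 4 only and 11 with 2 and 3 only (46.0%, 31.5%, 14.8%, 43.0% and 8.66% of all genes). The KO stage change had 9 at an adjusted p under 0.05, 7 by DESeq2, 0 summed, 27 with 1 and 4 only and 0 with 2 and 3 only (8.39%, 7.42%, 1.46%, 20.3% and 0.564% of all genes), and Spg had 1 by DESeq2 (1.81%).

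Without 1 library, values in Spg ran from -0.03 to 0.31 for Ccna2, -0.17 to 0.07 for Cdk1, -0.02 to 0.04 for Cdk2, -0.08 to 0.17 for Cdc25a, -0.05 to 0.35 for Cdc25c and -0.18 to 0.28 for Plk1, and the ratios from -0.03 to 0.19 for Cdk2 over Cdk1 and -0.03 to 0.16 for Cdc25c over Cdc25a. Members called ran from 5 to 8 between WT stages and 3 to 6 in the stage difference. The other division genes ran from 12 to 48 in the stage difference with the TMM reference held (15 to 48 without) and 0 to 6 between KO stages (0 to 4 without). Between KO stages, Ccnb1 ran from -0.34 to 0.02, Cdc25c from -0.33 to 0.02 and Aurkc from -0.22 to 0.23. Another reference library moved the median of all genes between WT stages from 0.02 to -0.10.

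The replicate block moved the genes called in Spg from 9 to 108 and in Spc from 12885 to 11439. Members called with the block were 0 in Spg, 7 in Spc and 4 in the stage difference, and Aurkc was at 0.11 between KO stages. Same-numbered KO and WT libraries of Spc did not all deviate together, and nothing in the labels says what a shared number stands for.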
